A study of Mus musculus with 9 samples.

Results

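The IFIT family (interferon-induced proteins with tetratricopeptide repeats) was followed in 9 mouse tumours through the rows of the deposited gene table named Ifit1, Ifit2, Ifit3 and Ifit3b. These are 4 of the 34745 genes in the table, and all 4 passed the filter on low counts. The tumours grew from LLC (Lewis lung carcinoma) cells injected under the skin of wild-type male C57BL/6 mice, whose age the labels give as 6 to 8 with no unit. Mice were randomised when tumours were near 100 mm3, and the groups held 3 tumours each. The isotype group received a control antibody at 10 mg/kg. The anti-PDL1 group received an antibody against the T cell brake PDL1 at 10 mg/kg. The BTZ+anti-PDL1 group received the same antibody at 10 mg/kg with BTZ (bortezomib, which blocks the proteasome) at 0.5 mg/kg. There was no group given BTZ only. Library titles call the control blank while the treatment label says isotype, and the treatment label was followed.

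IFIT genes are among the genes that type I interferon switches on most strongly. Their promoters carry interferon-stimulated response elements (ISRE), which are bound by ISGF3, a complex that holds Stat2 and Irf9, and also by Irf3 after a cell senses foreign nucleic acid. Ifit1 binds RNA whose cap lacks ribose methylation, the mark by which a cell knows its own messages, and blocks its translation. Ifit2 binds RNA rich in adenine and uracil and pairs with other family members, and Ifit3 is a partner of other family members. Ifit3b is a close copy of Ifit3 in the mouse genome.

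The 4 genes lie on the plus strand of chromosome 19 within 99.3 kb (coordinates as the table gives them, build mm10). Ifit2 (ENSMUSG00000045932) spans bases 34550694 to 34576419, Ifit3 (ENSMUSG00000074896) spans 34583531 to 34588731, Ifit3b (ENSMUSG00000062488) spans 34607970 to 34613401, and Ifit1 (ENSMUSG00000034459) spans 34640871 to 34650009. Between them on the minus strand are 2 relatives of Ifit1, namely Ifit1bl1 (ENSMUSG00000079339) and Ifit1bl2 (ENSMUSG00000067297). The 250 bases before the start of each of the 4 genes are shown because they hold, or do not hold, the letters of the interferon response element. They come from RefSeq on GRCm38.p6, run 5′ to 3′ toward the gene, and have in capitals each match to the ISRE core, searched on both strands. The core is GAAA, any 2 bases and GAAA again (TTTC in both places when read on the other strand).

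Ifit1 promoter, chr19:34640639-34640888, plus strand: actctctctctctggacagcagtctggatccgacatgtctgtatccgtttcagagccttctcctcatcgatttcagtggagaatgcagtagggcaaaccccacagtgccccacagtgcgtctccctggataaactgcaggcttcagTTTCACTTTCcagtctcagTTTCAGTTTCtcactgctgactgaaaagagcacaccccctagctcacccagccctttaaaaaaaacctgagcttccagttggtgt

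Ifit3 promoter, chr19:34583279-34583528, plus strand: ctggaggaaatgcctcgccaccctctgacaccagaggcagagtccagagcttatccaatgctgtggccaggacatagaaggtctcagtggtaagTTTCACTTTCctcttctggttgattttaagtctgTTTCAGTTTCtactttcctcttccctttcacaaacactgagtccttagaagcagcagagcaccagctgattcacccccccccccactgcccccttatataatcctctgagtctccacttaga

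Ifit3b promoter, chr19:34607707-34607956, plus strand: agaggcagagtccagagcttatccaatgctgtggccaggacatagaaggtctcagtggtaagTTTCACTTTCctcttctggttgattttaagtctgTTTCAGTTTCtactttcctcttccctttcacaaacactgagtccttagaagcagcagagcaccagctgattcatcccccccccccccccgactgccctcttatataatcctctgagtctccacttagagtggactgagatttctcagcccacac

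Ifit2 promoter, chr19:34550444-34550693, plus strand: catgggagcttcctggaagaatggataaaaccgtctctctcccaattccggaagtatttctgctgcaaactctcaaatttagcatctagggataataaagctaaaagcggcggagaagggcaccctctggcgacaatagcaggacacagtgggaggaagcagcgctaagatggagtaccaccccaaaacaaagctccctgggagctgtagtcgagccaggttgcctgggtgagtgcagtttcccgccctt

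Ifit1, Ifit3 and Ifit3b each held 2 core matches, in all 3 genes TTTCACTTTC followed by TTTCAGTTTC, which is the core read on the opposite strand. In Ifit1 they lay at bases -104 to -95 and -85 to -76 from the start. Those of Ifit3 lay at -156 to -147 and -122 to -113, and those of Ifit3b at -188 to -179 and -154 to -145. Ifit3 and Ifit3b windows were identical at 217 of 218 aligned bases (99.5%, gaps not counted), so their matches are copies of each other. Ifit2 had no core match in the window shown, nor in a window before its other RefSeq start, which says only that these letters are not in those windows. The Ifit2 window did hold TTCCTGGAA at -241 to -233, a match to TTCNNNGAA, the letters of a gamma-activated site (GAS). The core was found in 978 of 32851 mouse windows of the same length (2.98%), and the GAS letters in 7.02%. A longer form, the core followed by CT, was found in 0.222% of windows and in those of Ifit1, Ifit3 and Ifit3b. The window of Ifit1bl2 shares 145 bases with that of Ifit1 on the other strand, including both core matches.

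Depth was even, with 18.52 M to 21.51 M counts per tumour (M, mega), and values below are CPM (counts per 1 M counts) after TMM scaling unless FPKM, a value per length, is named. Each member was well covered: the lowest count in any tumour was 181 for Ifit1, 699 for Ifit2, 241 for Ifit3 and 57 for Ifit3b, where counting error alone is 13.2%. Isotype replicate 2 stood apart by its T cell markers, which summed to 7.13 CPM against 27.3 to 51.0 CPM in the other 8 tumours. Skeletal muscle markers ranged from 20.3 to 3263 CPM and were highest in isotype replicate 3, anti-PDL1 replicate 1 and BTZ+anti-PDL1 replicate 1. The labels name the tumours lung adenocarcinoma, yet of 4 lung identity markers Nkx2-1, Sftpc and Sftpb were at 0 in every tumour and only Napsa was counted. The summed level of the epithelial markers Krt8, Krt18, Epcam and Cdh1 was 76.2 to 135 CPM. These are pieces of whole tumour, so fewer cells of a type and less RNA per cell cannot be told apart.

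All 4 members had their highest values in the 3 tumours given BTZ with anti-PDL1. Ifit1 had 18.1, 8.96 and 12.3 CPM in isotype replicates 1, 2 and 3, 18.7, 15.1 and 15.2 CPM with anti-PDL1, and 26.5, 31.3 and 34.7 CPM with BTZ+anti-PDL1. The lowest combination tumour was thus above the highest of the other 6, while isotype and anti-PDL1 values overlapped. Ifit2 had 53.7, 34.6 and 41.7 CPM with isotype, 53.3, 43.6 and 50.1 CPM with anti-PDL1, and 60.8, 73.5 and 68.5 CPM with BTZ+anti-PDL1. Its groups were separated in the same way, but by a smaller gap. Ifit3 had 17.5, 12.2 and 12.6 CPM with isotype, 17.8, 15.0 and 16.4 CPM with anti-PDL1, and 33.5, 31.0 and 36.5 CPM with BTZ+anti-PDL1. Ifit3b, the least abundant member, had 4.36, 3.12 and 3.29 CPM, then 3.55, 3.30 and 2.67 CPM, then 6.56, 7.0 and 7.39 CPM in the same order of groups. For both Ifit3 and Ifit3b the combination tumours stood clear of the other 6, and isotype and anti-PDL1 overlapped. Isotype replicate 2 was the lowest of the 9 tumours for Ifit1, Ifit2 and Ifit3, and anti-PDL1 replicate 3 was the lowest for Ifit3b.

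**Figure D1:**
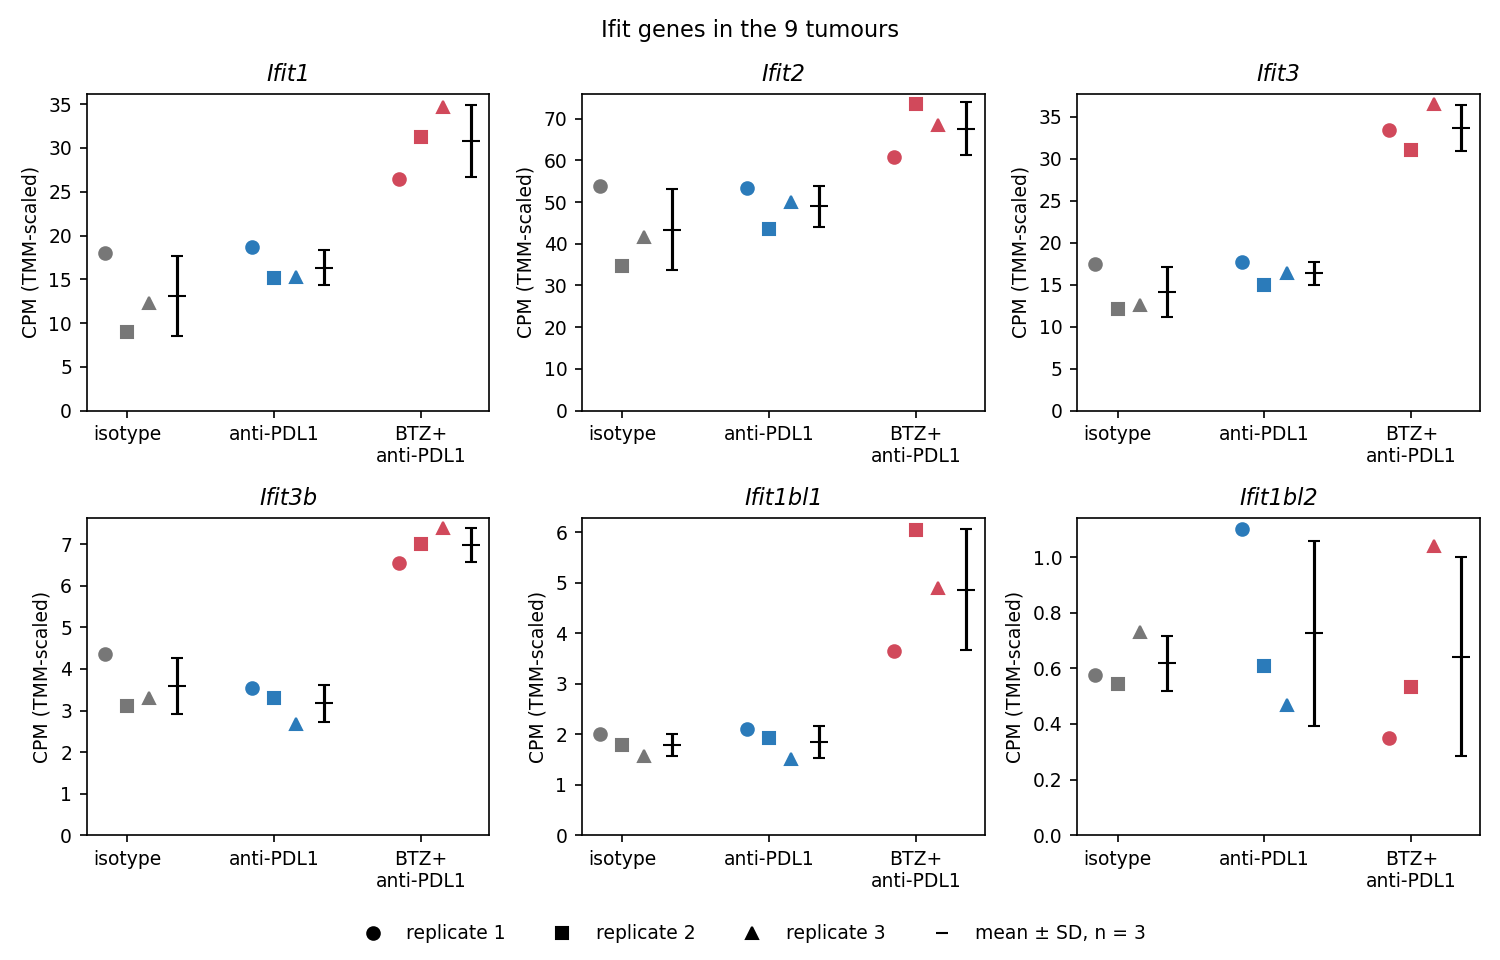
Level of each member and of the relatives Ifit1bl1 and Ifit1bl2 in CPM (TMM-scaled, linear axis from 0) in the 9 tumours, by group. Symbols show replicates and bars show mean ± SD (n = 3). In the panels of the 4 members the 3 BTZ+anti-PDL1 tumours lie above the other 6, with Ifit3 at 31.0 to 36.5 CPM against 12.2 to 17.8 CPM. The same holds for Ifit1bl1, while the groups overlap for Ifit1bl2.

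The comparison of BTZ+anti-PDL1 with anti-PDL1 asks what adding BTZ did. Ifit3b had 6.98 ± 0.417 CPM against 3.17 ± 0.454 CPM (SD, n = 3 each), a log2 fold change of 1.14 ± 0.196 (SE), which is 2.20-fold. Ifit3 had 33.7 ± 2.75 against 16.4 ± 1.37 CPM, a log2 fold change of 1.04 ± 0.149, and ranked 4th of 14506 genes by p. Ifit1 had 30.8 ± 4.11 against 16.3 ± 2.04 CPM (log2 fold change 0.91 ± 0.229), and Ifit2 had 67.6 ± 6.4 against 49.0 ± 4.93 CPM (0.46 ± 0.153). Ifit2 thus stood 1.38-fold higher and the other members 1.88-fold to 2.20-fold. Over all genes tested none of the 4 passed, with adjusted p of 0.177 for Ifit3, 0.293 for Ifit3b, 0.606 for Ifit1 and 0.789 for Ifit2 (edgeR quasi-likelihood test, Benjamini-Hochberg). Few genes did, since 0.0138% of all genes tested were called in this comparison. At an unadjusted p under 0.05, 4 of 4 members were higher, against 3.15% of all genes. Group values did not overlap, with the combination higher, for 4 of 4 members and for 7.33% of all genes. DESeq2 called 3 of 4 members, with adjusted p of 1.24e-06 for Ifit3, 0.0018 for Ifit3b and 0.0323 for Ifit1, and it called 0.314% of the 16574 genes to which it gave an adjusted p. Over the other settings tried with edgeR or limma, adjusted p ranged up to 0.77 for Ifit3, 0.86 for Ifit3b and 0.999 for Ifit1. Ifit3 passed in edgeR without isotype replicate 1, a tumour of neither group (adjusted p = 0.0145).

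Against the isotype tumours the same combination tumours again had the higher values. Ifit3 was 2.39-fold higher (log2 fold change 1.26 ± 0.15), Ifit1 2.35-fold (1.23 ± 0.232), Ifit3b 1.94-fold (0.96 ± 0.195) and Ifit2 1.56-fold (0.64 ± 0.154). None passed in edgeR, where Ifit3 came nearest with an adjusted p of 0.0511 and the others had 0.224, 0.264 and 0.354 for Ifit1, Ifit3b and Ifit2. Called genes made up 0.00689% of all genes tested. At an unadjusted p under 0.05, 4 of 4 members were higher, against 4.42% of all genes, and the values of 4 of 4 did not overlap, against 6.96% of all genes. DESeq2 called all 4 members, and 0.76% of the 14472 genes to which it gave an adjusted p. Limma on log2(FPKM + 1) called Ifit3 (adjusted p = 0.03), and 0.0257% of the 11651 genes it tested. For Ifit3 the adjusted p ran from 2.71e-10 to 0.256 over all settings tried, and without isotype replicate 1 it was 0.00845 and without isotype replicate 3 it was 0.048. Without isotype replicate 2, the tumour poor in T cell markers, log2 fold changes were 1.02 for Ifit1, 0.51 for Ifit2, 1.17 for Ifit3 and 0.87 for Ifit3b.

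Anti-PDL1 alone against isotype showed small differences within the spread of the tumours. Log2 fold changes were 0.32 ± 0.230 for Ifit1, 0.22 ± 0.149 for Ifit3, 0.18 ± 0.153 for Ifit2 and -0.18 ± 0.197 for Ifit3b. Group values overlapped for all 4 members, while 12.7% of all genes did not overlap, and 0 members passed in edgeR (adjusted p 0.82 to 0.875), where 0.0138% of all genes did. At an unadjusted p under 0.05 the count was also 0 of 4, against 6.35% of all genes, and DESeq2 and limma called none. The Ifit1 value was 0.11 without isotype replicate 2. Without isotype replicate 1 the values were 0.62 for Ifit1, 0.37 for Ifit2 and 0.41 for Ifit3, and these 3 of 4 members had an unadjusted p under 0.05 (3.86% of all genes, higher), with an edgeR adjusted p of 0.645 for each. The 3 comparisons share tumours (the anti-PDL1 group stands in 2 of them, as do isotype and BTZ+anti-PDL1), so they are not independent of each other.

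**Figure D2:**
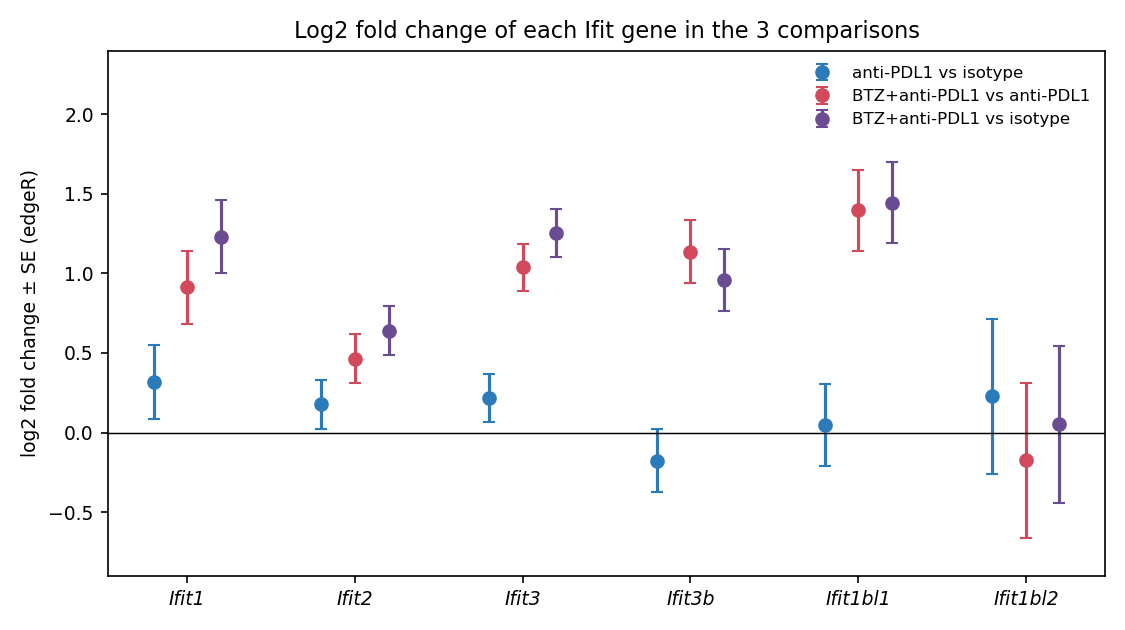
Log2 fold change with SE (edgeR, vertical axis) for the 4 members and the 2 relatives in the 3 comparisons, shown by colour. Values against anti-PDL1 and against isotype lie above 0 for the 4 members and Ifit1bl1, from 0.46 to 1.44, while anti-PDL1 against isotype lies between -0.18 and 0.32.

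The neighbours of the members show how far the pattern extended along the chromosome. Ifit1bl1, which lies between Ifit3 and Ifit3b, had 1.99, 1.78 and 1.57 CPM with isotype, 2.10, 1.93 and 1.5 CPM with anti-PDL1, and 3.65, 6.04 and 4.89 CPM with BTZ+anti-PDL1. Its combination values were above all others, and the log2 fold change against anti-PDL1 was 1.40 ± 0.253 (edgeR adjusted p = 0.293). Ifit1bl2, whose start lies next to that of Ifit1 on the other strand, stayed between 0.35 and 1.10 CPM with overlapping groups (-0.18 ± 0.487). The 3 nearest protein-coding genes on the left are Fas (a death receptor), Ch25h (cholesterol 25-hydroxylase, also an interferon-induced gene) and Lipa (lysosomal acid lipase). Their log2 fold changes against anti-PDL1 were -0.11 ± 0.231, -0.31 ± 0.261 and -0.01 ± 0.128. On the right, Slc16a12 (a transporter), Pank1 (coenzyme A synthesis) and Kif20b (a mitotic kinesin) had -0.04 ± 0.723, 0.10 ± 0.262 and -0.05 ± 0.115. All 6 flanking genes had overlapping groups and an edgeR adjusted p of at least 0.896.

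**Figure D3:**
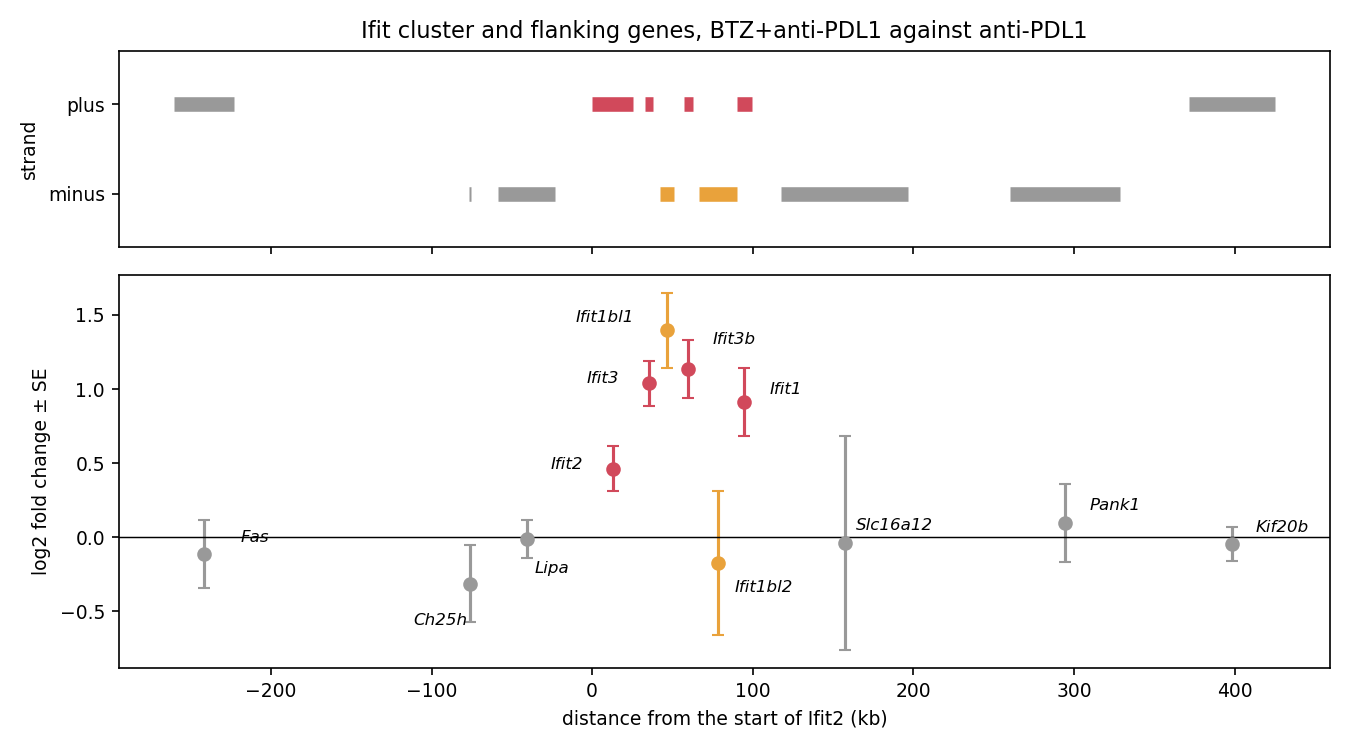
Genes of the IFIT cluster and its flanks as boxes by strand (top) and their log2 fold change ± SE, BTZ+anti-PDL1 against anti-PDL1 (bottom), by distance in kb from the start of Ifit2. Members are red, relatives orange and flanking genes grey; values of 0.46 to 1.40 lie within the cluster, except Ifit1bl2 at -0.18, and the flanks lie between -0.31 and 0.10.

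Levels of different members can be compared per length, in FPKM. Summed over the 4 members the level was 24.6 ± 6.06 FPKM with isotype, 28.3 ± 2.66 with anti-PDL1 and 50.3 ± 3.35 with BTZ+anti-PDL1 (SD, n = 3). In all 6 tumours without BTZ the order was Ifit2, Ifit3, Ifit1, Ifit3b from high to low. In the 3 combination tumours Ifit3 came first, at 19.4, 18 and 21 FPKM against 14.1, 17.0 and 15.8 FPKM for Ifit2. That switch depends on the length used for Ifit2. The deposited values imply 4366 bases, while its longest GENCODE M21 transcript has 3818, and with the latter Ifit2 (19.4 FPKM) stood above Ifit3 (18 FPKM) in combination replicate 2. Across tumours of a group, Ifit2 and Ifit3 overlapped in FPKM with isotype and with anti-PDL1, and Ifit3 and Ifit1 overlapped with isotype. Other neighbours in the order did not overlap within a group.

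The make-up of the family differed between groups. Ifit2 made up 39.3, 40.0 and 41.4% of the summed FPKM in the isotype tumours, 39.1, 38.5 and 41.0% with anti-PDL1 and 30.0, 33.7 and 29.4% with BTZ+anti-PDL1. The combination values lay below the other 6 (31.1 ± 2.34% against 39.6 ± 1.32% with anti-PDL1, exact permutation p over the 3 groups = 0.0179, 0.0357 adjusted over the 4 shares). Ifit3 took 41.4, 35.7 and 39.2% in the combination tumours and 31.3 to 35.2% in the other 6 (exact permutation p = 0.0357, adjusted 0.0476). Ifit3b was lowest in the anti-PDL1 tumours, at 5.61 ± 0.795%, against 7.32 ± 0.480% with isotype and 7.0 ± 0.076% with the combination (exact permutation p = 0.0107, adjusted 0.0357). Ifit1 had 19.6 ± 2.39, 21.7 ± 1.06 and 23.2 ± 1.51% in the 3 groups, and this did not pass (exact permutation p = 0.0857). The test arranges 9 tumours in 1680 ways, and the smallest p it can give is 0.00357. The 4 shares sum to 100% and so are not independent, and the 6 tumours left without those richest in muscle RNA gave an adjusted p of 0.267 for each, a design too small to pass. With 1 tumour left out in turn, the Ifit3 share passed in none of the 9 cases (exact permutation test, adjusted p 0.0643 to 0.1). The Ifit2 share passed only without isotype replicate 1 (0.0381) or anti-PDL1 replicate 3 (0.0214). The Ifit3b share did not pass without isotype replicate 2 or 3 or any combination tumour (0.075 to 0.0857), and the Ifit1 share passed without isotype replicate 1 (0.0381).

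**Figure D4:**
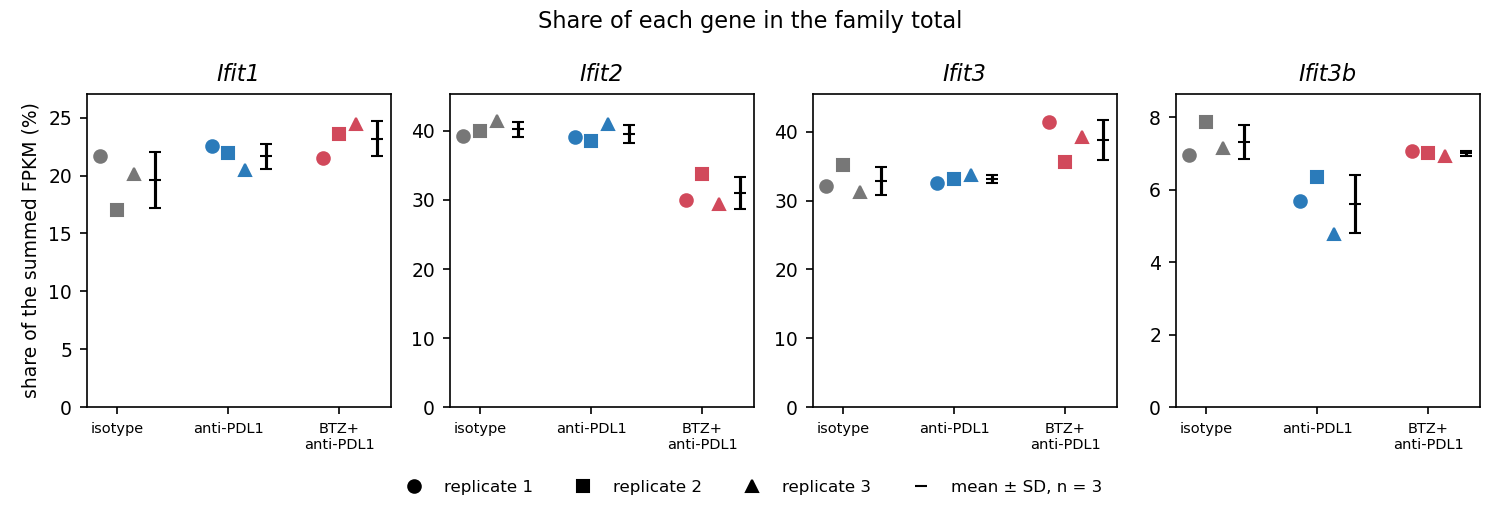
Share of each member in the summed FPKM of the 4 (percent, axis from 0) in the 9 tumours by group, with mean ± SD (n = 3). Ifit2 lies at 29.4 to 33.7% in the combination tumours against 38.5 to 41.4% in the other 6, and Ifit3 at 35.7 to 41.4% against 31.3 to 35.2%.

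Ifit3 and Ifit3b need care because their reads can be confused. Their transcripts are identical at 1663 of 1697 aligned bases (98%, gaps not counted). Of the stretches of Ifit3, 51.2% of 50 bases, 31.7% of 100 bases and 18.5% of 150 bases occur unchanged in Ifit3b. Read length and the treatment of reads with several matches are not given in the sources used here, so the split of counts between the copies is uncertain. Ifit2 had no stretch of 50 bases in another gene, and Ifit1 had 7.13%, shared with Ifit1bl2 and Ifit1bl1. With the counts of Ifit3 and Ifit3b added together, the log2 fold change against anti-PDL1 was 1.05 (edgeR adjusted p = 0.12) and against isotype 1.20 (0.0505). Ifit3b stood at 21.7, 22.3 and 22.8% of the Ifit3 level in FPKM in isotype tumours, at 17.5, 19.2 and 14.2% with anti-PDL1, and at 17.1, 19.7 and 17.6% with the combination. The isotype values were above the other 6.

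Among the 6 tumours without BTZ, Ifit1, Ifit2 and Ifit3 varied together. On log2 CPM, Ifit1 and Ifit2 had Pearson r = 0.966 (exact permutation p = 0.00278, adjusted over 6 pairs 0.00556) and Spearman rho = 0.943 (exact permutation p = 0.0167, adjusted 0.0333). Ifit1 and Ifit3 had r = 0.938 (exact permutation p = 0.00139, adjusted 0.00556) and rho = 1 (exact p = 0.00278, adjusted 0.0167). Ifit2 and Ifit3 had r = 0.951 (exact permutation p = 0.00278, adjusted 0.00556) and rho = 0.943 (exact p = 0.0167, adjusted 0.0333). For each pair, the 2 tumours farthest from the median of its first-named gene were then left out. These 3 values of r were then 0.879, 0.956 and 0.940 over 4 tumours. Pairs with Ifit3b had r of 0.446 for Ifit1, 0.385 for Ifit2 and 0.364 for Ifit3 (exact permutation p of 0.357, 0.44 and 0.503, all adjusted to 0.503). Their rho values were 0.600, 0.657 and 0.600 (exact permutation p of 0.242, 0.175 and 0.242, all adjusted to 0.242). Without the 2 tumours farthest from the median of the partner of Ifit3b, the pair Ifit2 and Ifit3b had r = -0.098. The pairs of Ifit3b with Ifit1 and Ifit3 had 0.519 and 0.469. The combination tumours form a cluster of their own in these genes, so over all 9 tumours r is given only for deviations from the group means, as a description. It was 0.845, 0.676 and 0.734 for Ifit3b with Ifit1, Ifit2 and Ifit3. For the pairs without Ifit3b it was 0.931 (Ifit1 and Ifit2), 0.855 (Ifit1 and Ifit3) and 0.782 (Ifit2 and Ifit3).

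By pattern over the 9 tumours, the 10 genes most like the mean of the members, out of 12292 ranked, had r between 0.933 and 0.978, given as a description. The combination cluster enters these values, and for deviations from the group means r ran from 0.623 for Oas1b to 0.914 for Sgk2. They were Sgk2, Mif4gd, Oas1b, Ifi35, Tyk2, Cmpk2, Stat2, Tcirg1, Ifi27 and Pydc3, in that order. Oas1b belongs to the family of sensors of double-stranded RNA, Tyk2 is a kinase bound to the type I interferon receptor, and Cmpk2 is an interferon-induced nucleotide kinase. Against anti-PDL1 the log2 fold changes of the 10 genes ran from 0.19 ± 0.072 for Tcirg1 to 1.13 ± 0.222 for Oas1b. The genes were picked by likeness to a profile that is high in the combination tumours, so values above 0 follow from that choice. Ifit1bl1 had r = 0.932, and Ifit1bl2 had r = 0.041.

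The ligands that induce the family were scarcely counted. Of 20 interferon genes listed, 13 had no count in any tumour and only Ifng, which encodes interferon-gamma, was tested. Ifnb1, the type I interferon made by many cell types, had 3, 5 and 0 counts in the isotype, anti-PDL1 and combination groups. A count of 0 among 57427242 allows up to 3 counts, or 0.0522 CPM, for counting error only, so a difference was not detectable at this depth. Ifng had 4, 0 and 5 counts with isotype, 6, 11 and 8 with anti-PDL1, and 20, 19 and 11 with the combination. Counts were few, and combination replicate 3 equalled anti-PDL1 replicate 2 in counts (0.572 and 0.558 CPM). In CPM the groups did not overlap in any of the 3 comparisons. The log2 fold change of Ifng for the combination against anti-PDL1 was 1.06 ± 0.627 (edgeR adjusted p = 0.886). For the combination against isotype it was 2.43 ± 0.708 (edgeR adjusted p = 0.492), and for anti-PDL1 against isotype 1.37 ± 0.741 (0.77).

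The receptor and the ISGF3 complex had mixed values when BTZ was added. Of the 6 genes described here, 3 had higher values and 3 lower against anti-PDL1. EdgeR called 0 of them (0.0138% of all genes were called). At an unadjusted p under 0.05, 2 of 6 (Stat2 and Tyk2) were higher, against 3.15% of all genes. Stat2 stood out with 95.0 ± 14.1 against 66.1 ± 2.66 CPM (log2 fold change 0.52 ± 0.131, edgeR adjusted p = 0.606), and Tyk2 had 0.24 ± 0.088. For Stat2 and Tyk2 the groups did not overlap, with the combination higher (7.33% of all genes). Irf9 (0.18 ± 0.122) had overlapping groups. The receptor chains Ifnar1 and Ifnar2 had -0.03 ± 0.081 and -0.13 ± 0.079, and the kinase Jak1 had -0.10 ± 0.066. For Ifnar2 the groups did not overlap, with the combination lower (share of all genes not computed), while those of Ifnar1 and Jak1 overlapped. Among 16 sensors and interferon regulatory factors 13 had higher values (median 0.16), while 50.8% of all genes had a value above 0. Irf7, a factor that amplifies interferon production and is itself interferon-induced, had 33.4 ± 6.01 against 17.2 ± 1.74 CPM (0.96 ± 0.157, edgeR adjusted p = 0.293). Irf3, which can act on IFIT promoters directly, had 0.02 ± 0.095. The sensor RIG-I (Ddx58 in the table) had 0.36 ± 0.153 and the related sensor Ifih1 0.22 ± 0.183.

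Other antiviral genes that interferon induces lay on the same side as the IFIT genes. Against anti-PDL1, 27 of 27 tested had higher values (50.8% of all genes had a value above 0), with a median of 0.54 and a range of 0.13 to 1.54. In 21 of 27 the groups did not overlap, with the combination higher, against 7.33% of all genes. At an edgeR unadjusted p under 0.05, 19 of 27 were higher, against 3.15% of all genes. EdgeR called 0, where 0.0138% of all genes were called. Mx1 had 17.2 ± 2.85 against 6.78 ± 1.36 CPM (1.34 ± 0.251). Cmpk2 had 0.86 ± 0.142, Oas2 (an RNA sensor that makes the activator of RNase L) 0.91 ± 0.381 and Rsad2 (viperin) 0.51 ± 0.147. A list of 7 genes drawn up for restraint of type I signalling also holds Isg15 (a ubiquitin-like modifier), which had 1.19 ± 0.215. Whether Isg15 restrains this signalling in these tumours was not tested. In the same list Usp18 (which removes Isg15 and blocks the receptor) had 0.89 ± 0.169 and Socs1 0.16 ± 0.129, and the median of the 7 was 0.02. For anti-PDL1 against isotype, 21 of 27 antiviral genes had higher values with a median of 0.19 (49% of all genes had a value above 0). There 2 of 27 had groups apart and higher (12.7% of all genes in either direction). At an edgeR unadjusted p under 0.05, 0 of 27 were higher (6.35% in either direction). For the combination against isotype 27 of 27 had higher values with a median of 0.70 (49.7% of all genes). There 19 of 27 had groups apart and higher (6.96% of all genes), and 25 of 27 were higher at an edgeR unadjusted p under 0.05 (4.42%). In the motif search, 8 of the 21 antiviral genes with a promoter window held the ISRE core.

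Genes known for their response to interferon-gamma were listed beside the antiviral genes. All 21 tested had higher values with anti-PDL1 than with isotype (median 0.63, 49% of all genes above 0). Of these, 3 of 21 had groups apart and higher (12.7% of all genes in either direction). At an edgeR unadjusted p under 0.05, 1 of 21 was higher (6.35% of all genes in either direction). Isotype replicate 3 summed to 912 CPM for the list, within the 877 to 937 CPM of the anti-PDL1 tumours. With the combination, 19 of 21 had higher values than with anti-PDL1 (median 0.28, 50.8% of all genes). All 21 had higher values with the combination than with isotype (median 0.94, 49.7% of all genes). In that comparison 8 of 21 had groups apart and higher (6.96% of all genes). There 9 were higher at an edgeR unadjusted p under 0.05 (4.42% of all genes). Between the combination and anti-PDL1, 3 of 21 had groups apart with the combination higher (7.33% of all genes). In that comparison 1 had groups apart with the combination lower (share of all genes not computed). EdgeR called 0 of these genes in any of the comparisons. Gbp2, a GTPase that attacks vacuoles of microbes, had 143 ± 9.91 CPM with anti-PDL1 and 171 ± 42.9 CPM with the combination (0.26 ± 0.441). Cxcl9, a chemokine for T cells, had 0.24 ± 0.738. Isotype replicate 2, the tumour poor in T cell markers, set the lower end of the list at a summed 268 CPM.

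The partners of IFIT function, cap methylation and translation initiation, had values near 0. Of 6 cap methylation genes, Cmtr1, which adds the ribose methyl group next to the cap, had -0.03 ± 0.071 against anti-PDL1. Cmtr2, which methylates the following ribose, had 0.33 ± 0.117 with groups that did not overlap (edgeR adjusted p = 0.819), and the list median was 0.03. The 13 subunits of eIF3, a translation factor that IFIT proteins bind, had a median of -0.01 with values from -0.09 to 0.08. None of the 13 had groups apart in that comparison, where 7.33% of all genes were apart with the combination higher. Against isotype, 11 of 13 had lower values with anti-PDL1 and 10 of 13 with the combination, where 49% and 49.7% of all genes had a value above 0. With anti-PDL1, 2 of 13 had groups apart, against 12.7% of all genes in either direction. With the combination 2 of 13 were apart and lower. The share of all genes apart and lower was not computed, so this count has no background to be read against. EdgeR called 0 in each case.

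**Figure D5:**
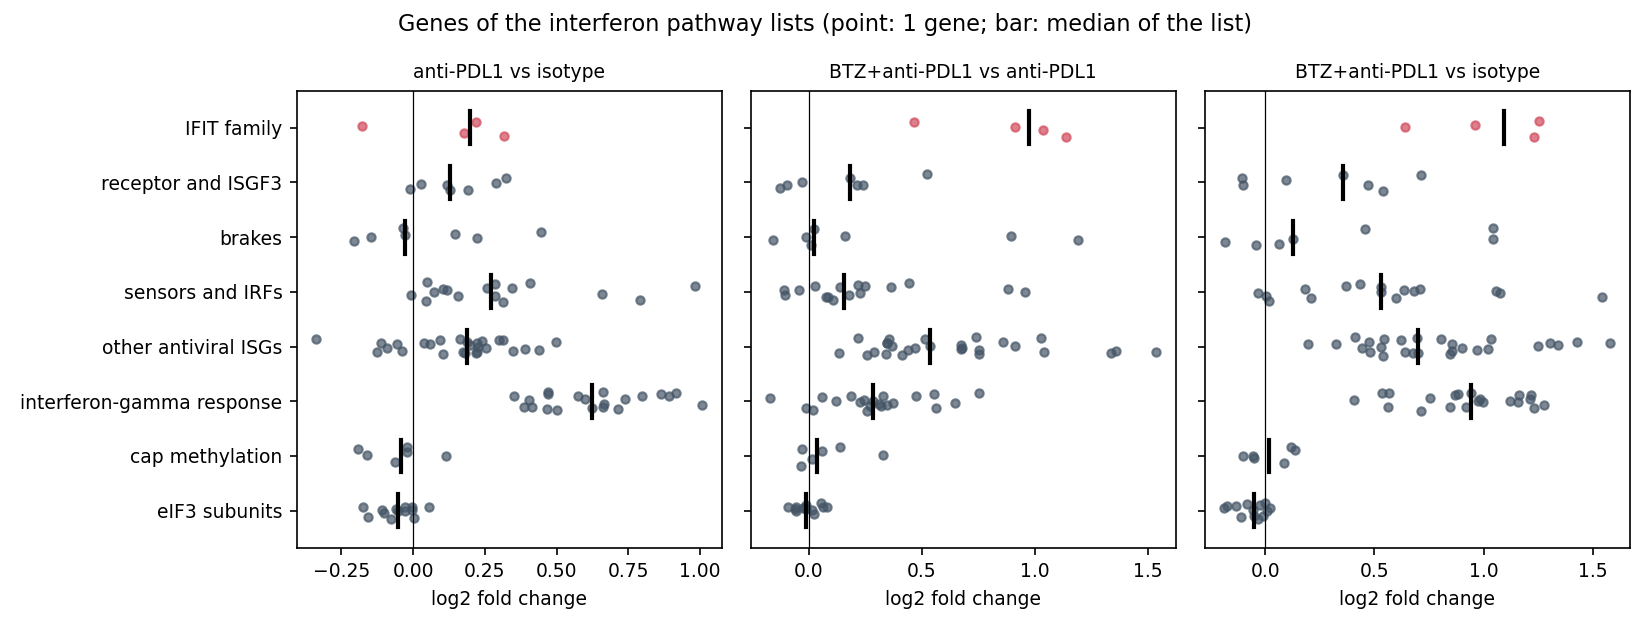
Log2 fold change (horizontal axis, range differs by panel) of each tested gene in the pathway lists for the 3 comparisons, with a point per gene and a bar at each list's median, members in red. In the middle panel, BTZ+anti-PDL1 against anti-PDL1, other antiviral genes have a median of 0.54 and the eIF3 subunits one of -0.01.

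Summed marker lists of several cell types did not overlap between the combination and anti-PDL1, and those of NK cells and endothelium did not overlap isotype either. All 8 NK cell markers had higher values than with anti-PDL1 (50.8% of all genes had a value above 0). Singly, 3 of 8 had groups apart and higher (7.33% of all genes), and 1 of 8 was higher at an edgeR unadjusted p under 0.05 (3.15%). Their sum was 38.0 to 46.3 CPM in the combination tumours, 28.5 to 34.4 CPM with anti-PDL1 and 25.3 to 30.0 CPM with isotype. All 6 tested neutrophil markers had lower values, with 3 of 6 apart and 3 of 6 at an edgeR unadjusted p under 0.05. The list summed to 34.1 to 68.3 CPM against 74.4 to 102 CPM with anti-PDL1 and 48.1 to 109 CPM with isotype. All 8 endothelial markers had lower values as well, with 4 of 8 apart and 2 of 8 at an edgeR unadjusted p under 0.05. Their sums were 195 to 228 CPM against 235 to 301 CPM with anti-PDL1 and 233 to 359 CPM with isotype. Shares of all genes apart and lower, or lower at that p, were not computed. Among 8 fibroblast markers 5 had lower values, and the sums were 7904 to 8115 CPM against 8962 to 11866 CPM with anti-PDL1 and 7735 to 9446 CPM with isotype. Plasmacytoid dendritic cell markers, a list that holds the interferon-induced Bst2, summed to 297 to 313 CPM, against 240 to 287 CPM with anti-PDL1 and 215 to 332 CPM with isotype. The mean log2 level of that list, relative to all 9 tumours, overlapped between the combination (-0.11 to 0.53) and anti-PDL1 (0.06 to 0.36). Macrophage markers overlapped (1724 to 1942 against 1891 to 2055 CPM with anti-PDL1 and 1082 to 2019 CPM with isotype), and so did T cell markers (32.1 to 51.0 against 34.7 to 39.5 and 7.13 to 37.4 CPM). Red blood cell markers summed to 136 to 268 CPM with isotype, 45.3 to 88.8 CPM with anti-PDL1 and 29.0 to 196 CPM with the combination. All 6 were lower and apart in anti-PDL1 against isotype (median log2 fold change -1.73), where 12.7% of all genes were apart in either direction. All 6 had higher values, with overlapping groups, in the combination against anti-PDL1 (median 0.53, 50.8% of all genes above 0). The part of these cell types in the IFIT values was not tested. Leaving out the tumour richest in muscle RNA from each group gave log2 fold changes against anti-PDL1 of 1.12 for Ifit1, 0.60 for Ifit2, 1.10 for Ifit3 and 1.27 for Ifit3b, none of them called by edgeR.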

How the data were processed

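RNA of 9 tumours was sequenced, and the deposited table gives a whole-number count and an FPKM for each gene and tumour. The count is not normalised, per the file headers. FPKM came from the authors too: in 13041 genes the deposited value could be rebuilt from the count, the total of the column and a fixed gene length (largest relative deviation 6e-05). Per the submitters' processing notes, HISAT2 2.0.4, StringTie 1.3.3b and mm10 were used, in roles not stated. The counting tool, annotation release, strand setting and read length are not given in the sources used here. Groups come from the labels. Isotype and anti-PDL1 columns bear their library titles, while for BTZ+anti-PDL1 the treatment label with the replicate number gave the match. Replicates were taken as separate tumours, since mice were randomised to the groups, but the labels used here give no animal identifier.

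Tests on counts used edgeR 4.0.16 under R 4.3.3 (quasi-likelihood F test, robust, TMM scaling, 1 model of 3 group means over 9 tumours, 6 residual degrees of freedom). After filterByExpr (minimum count 10) 14506 genes were tested, and calls needed a p under 0.05 after Benjamini-Hochberg adjustment over all of them. The SE was derived from the fold change and its F value. The median log2 fold change over all genes was within 0.01 of 0 in each comparison, and the median SE was 0.138. Shares of summed FPKM were tested by an exact permutation test of the between-group sum of squares, two-sided by construction. Alternatives used DESeq2 1.42.0, limma 3.58.1 on log2(FPKM + 1) or log2(FPKM + 0.1), no filter, only the 6 tumours compared, a replicate block, a muscle covariate, and each tumour left out. Motifs were searched in the RefSeq windows of 250 bases before each start, and transcripts were compared with Biopython 1.88. The edgeR code was tested on simulated data.

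Genes named in the text are the members, their 2 relatives, genes marked by role in the lists, the 3 nearest protein-coding genes on each side, and the 10 most like the members by Pearson r of log2 CPM (prior count 2, mean of at least 1 CPM, predicted loci left out). Members, lists, tests and settings were chosen with earlier results of these data known. Levels by the longest GENCODE transcript were an alternative added later. The values of 1 listed gene are not reported here.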

Additional observations from a re-analysis of the deposited data

How the results depend on the processing

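In 225 recomputed fold changes of the 4 members over the settings tried, 0 changed direction. Calls moved more. For BTZ+anti-PDL1 against anti-PDL1 the members called, 0 in the main analysis, were 1 with no filter and with only the 6 tumours compared, 3 with DESeq2, and 0 to 1 with a tumour left out. The log2 fold change of Ifit3 was 1.04 with no filter (edgeR adjusted p = 0.0467), 1.04 with the 6 tumours (0.0112) and 1.03 with DESeq2, and 0.98 to 1.10 with a tumour left out. DESeq2 gave 0.91 for Ifit1 and 1.14 for Ifit3b, both called. For BTZ+anti-PDL1 against isotype the members called were 1 with no filter, 4 with DESeq2, 1 with either limma setting, and 0 to 1 with a tumour left out. Ifit3 had 1.26 with no filter (edgeR adjusted p = 0.0128), 1.25 with DESeq2, 1.20 with limma on log2(FPKM + 1), 1.29 on log2(FPKM + 0.1), and 1.17 to 1.45 with a tumour left out. DESeq2 called Ifit1 at 1.23, Ifit2 at 0.64 and Ifit3b at 0.96. The cause of these differences in calls was not tested.

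Replicate numbers gave no sign of pairing the tumours (correlation of deviations -0.43 to 0.39, 3 of 9 pairs above 0.1). Pairs of different number had -0.42 to 0.58, with 7 of 18 above 0.1, and 1 of 9 tumours correlated best with its own number. The value of 0.58 was between isotype replicate 3 and BTZ+anti-PDL1 replicate 1, both rich in muscle RNA. Whether muscle RNA hides a pairing was not tested. With the replicate number as a block, edgeR gave 1.04 for Ifit3 against anti-PDL1 (adjusted p = 0.2) and no member was called.

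Genes called over the whole table changed with the setting. Anti-PDL1 against isotype gave 2, and 1 with the block, 14 with DESeq2, 0 without the 3 muscle-rich tumours and 1 to 4 with a tumour left out. BTZ+anti-PDL1 against anti-PDL1 gave 2, and 4 with no filter, 12 with the 6 tumours, 1 with the block, 52 with DESeq2, 0 without the muscle-rich tumours and 1 to 7 with a tumour left out. BTZ+anti-PDL1 against isotype gave 1, and 6 with no filter, 0 with the 6 tumours, 0 with the block, 110 with DESeq2, 3 with either limma setting, 0 without the muscle-rich tumours, 0 with the muscle covariate and 0 to 20 with a tumour left out.

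Differences in share (combination minus anti-PDL1, percentage points) kept their sign. By summed CPM the Ifit1 share differed by 2.86 and passed. Without the muscle-rich tumours Ifit2 had -8.21, Ifit3 4.01 and Ifit3b 1.40 and none passed, as 6 tumours in 3 groups cannot reach the threshold. With a tumour left out the ranges were 0.88 to 2.35 for Ifit1, -9.85 to -7.69 for Ifit2, 4.28 to 7.15 for Ifit3 and 0.98 to 1.77 for Ifit3b. The Ifit3 share did not pass in any of these 9 fits, and the Ifit2 and Ifit3b shares passed in some of them.

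Among the members depth limits Ifit3b most (57 counts at the lowest); Ifit1bl2, Slc16a12, Ifng and Ifnb1 had fewer counts still.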
